A study of Rattus norvegicus with 2 samples.

Results

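The genes described here are 42 genes of cell division, given by a list and looked up by symbol in the files, of which 41 were measured among the 25399 genes of the tables. They comprise 28 genes of G2 and mitosis (called mitotic genes here, 27 measured), 11 genes of DNA replication (S genes) and 3 cyclins of G1. The mitotic gene Ccnb2 was not matched to a symbol in the files, so it has no expression values here and enters only the promoter counts. The cells came from the optic nerve of rats, labelled as postnatal day 7 and titled as a mixed cell culture. The study's methods give pups of 2 days for its astrocyte cultures and no age for the cells sequenced here. The WT library was made from Sprague Dawley rats, and the Nuc1 library from rats with a spontaneous insertion in the crystallin gene Cryba1. Each genotype has 1 library, the number of animals behind it is not given in the sources used here, and no treatment is named. The kit counts unique molecular identifiers (UMIs, 1 for each captured transcript molecule). The WT library held 34517542 UMIs in 2107 barcodes and the Nuc1 library 35794685 in 1929, of which 1963 and 1782 cells were kept.

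A cell that divides first copies its DNA in S phase, using the Mcm helicase that opens the double helix, the clamp Pcna and enzymes that supply nucleotides. It then builds up the kinase Cdk1 with cyclin B, condenses and sorts its chromosomes on a spindle, and destroys the cyclins to leave mitosis. In promoters, genes of S phase are known for sites of E2F factors, and genes of mitosis for a CHR element (cell cycle genes homology region) next to CCAAT boxes, read by the DREAM and MuvB complexes and by NF-Y. Cells that grow many cilia stop dividing, and are known to reuse parts of the mitotic programme while they multiply their centrioles. In the optic nerve, precursors of the oligodendrocyte lineage are the classical dividing cell, and astrocytes and fibroblasts of the sheath can divide in culture.

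Promoters are shown first, because the S and mitotic genes differed in what follows and these windows show how the 2 sets differ in sequence. Of the 42 listed genes, 34 matched a RefSeq promoter (build GRCr8), taken from 250 bases before to 50 bases after the start. Mcm4, Tpx2, Rrm2, Ccne2, Aurkb, Ccna2, Ccnd1 and Ube2c were not matched. The motifs searched on both strands were TTTGAA for the CHR, CCAAT for the CCAAT box, and TTTCCCGC, TTTCGCGC, TTTGCCGC and TTTGGCGC for E2F sites, where matches on opposite strands can overlap. The CHR letters stood in 18 of 24 mitotic genes (75.0%), in 1 of 9 S genes and in 19.4% of all 27457 genes with a promoter. E2F letters stood in 1 of 24 mitotic genes, which was Cdk1, in 6 of 9 S genes and in 2.37% of all genes. CCAAT letters were in 19 of 24 mitotic and 7 of 9 S genes, against 39.6% of all genes. Of the 24 mitotic genes, 15 held both the CHR and the CCAAT letters, against 7.96% of all genes. The letters alone are a description and mark no bound site. Below, 3 mitotic genes (Cdk1, chr20:19265043-19265342, plus strand; Cdc20, chr5:137255750-137256049, minus strand; Prc1, chr1:143659231-143659530, plus strand) stand beside 2 S genes (Mcm5, chr19:13488563-13488862, plus strand; Mcm6, chr13:42404303-42404602, minus strand), with matches to any of these motifs in capitals.
Cdk1: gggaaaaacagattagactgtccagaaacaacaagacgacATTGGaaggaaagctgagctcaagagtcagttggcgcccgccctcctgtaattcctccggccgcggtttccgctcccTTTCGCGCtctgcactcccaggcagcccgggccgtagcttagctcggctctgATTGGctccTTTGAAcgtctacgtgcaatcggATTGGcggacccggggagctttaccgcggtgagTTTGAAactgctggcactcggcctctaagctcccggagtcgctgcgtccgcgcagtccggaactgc
Cdc20: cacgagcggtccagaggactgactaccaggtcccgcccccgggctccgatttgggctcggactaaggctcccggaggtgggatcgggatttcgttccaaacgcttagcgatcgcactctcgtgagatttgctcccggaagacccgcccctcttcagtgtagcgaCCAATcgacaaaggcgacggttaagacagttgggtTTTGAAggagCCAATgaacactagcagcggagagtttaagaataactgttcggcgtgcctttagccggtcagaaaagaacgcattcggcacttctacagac
Prc1: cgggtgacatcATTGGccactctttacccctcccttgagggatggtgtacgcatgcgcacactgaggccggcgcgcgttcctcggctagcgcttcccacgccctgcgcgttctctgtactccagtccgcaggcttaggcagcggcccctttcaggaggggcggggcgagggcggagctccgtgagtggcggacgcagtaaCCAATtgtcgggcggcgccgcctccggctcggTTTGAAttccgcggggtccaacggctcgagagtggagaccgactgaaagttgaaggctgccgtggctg
Mcm5: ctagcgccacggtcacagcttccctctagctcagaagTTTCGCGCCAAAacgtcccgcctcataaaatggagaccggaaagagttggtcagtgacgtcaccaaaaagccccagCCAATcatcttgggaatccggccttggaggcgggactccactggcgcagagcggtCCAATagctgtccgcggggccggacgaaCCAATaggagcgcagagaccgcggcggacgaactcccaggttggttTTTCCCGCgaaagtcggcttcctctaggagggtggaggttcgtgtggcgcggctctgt
Mcm6: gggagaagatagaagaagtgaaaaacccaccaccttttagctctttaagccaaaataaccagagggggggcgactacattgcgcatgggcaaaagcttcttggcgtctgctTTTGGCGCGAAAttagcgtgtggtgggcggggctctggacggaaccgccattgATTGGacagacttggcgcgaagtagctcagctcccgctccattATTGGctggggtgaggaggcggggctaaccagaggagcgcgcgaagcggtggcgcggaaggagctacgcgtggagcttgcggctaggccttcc

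In Cdk1 both CHR matches lay close to the start, at 72 and 16 bases before it, with CCAAT boxes at 81 and 49 bases before it. Mcm5 and Mcm6 held no CHR match in these windows, and in each an E2F match on one strand ran into another on the opposite strand.

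Cells were clustered without 494 genes tied to the cell cycle, so that division did not set the classes. They were named from marker lists or, for the fibroblast-like class, from summed transcripts of collagen and proteoglycan genes. The astrocyte-like cluster (109 WT and 355 Nuc1 cells) was led by Gfap, Hspb1 and Fabp7 and held 15 of 16 astrocyte markers in WT and 16 in Nuc1, summing to 43647 and 55001 CPM (UMIs per 1000000 UMIs of the same cells). The ciliated-like cluster (14 and 106 cells) was led by Dynlrb2, Cfap126 and Ccdc153, with 17 of 17 measured ciliated markers in both libraries, and also carried astrocyte markers at 20347 and 25778 CPM. The oligodendrocyte-lineage-like cluster (60 and 12 cells) was led by Bcas1 and Mbp, while Mobp, Neu4 and Ermn were at 0 in both libraries. The fibroblast-like class (1743 and 1259 cells) pooled 4 clusters rich in collagen transcripts, with 24 and 25 of 25 measured fibroblast markers. The remaining cells were 15 WT and 22 Nuc1 macrophage-like cells, of which the Nuc1 cells had a median of only 1807.5 UMIs, and an unnamed cluster led by Ttr and Gldn.

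A cell was counted as carrying mitotic genes when, after it was thinned to 5000 UMIs, it held a UMI of at least 5 of the 27. Among WT cells these were 15 of 108 astrocyte-like cells (13.9%, exact binomial interval 7.99 to 21.9), 195 of 1726 fibroblast-like cells (11.3%, 9.84 to 12.9), 22 of 53 oligodendrocyte-lineage-like cells (41.5%, 28.1 to 55.9) and 5 of 14 ciliated-like cells (35.7%, 12.8 to 64.9). Among Nuc1 cells these were 9 of 349 astrocyte-like cells (2.58%, 1.19 to 4.84), 86 of 1251 fibroblast-like cells (6.87%, 5.54 to 8.42), 5 of 8 oligodendrocyte-lineage-like cells (62.5%, 24.5 to 91.5) and 15 of 104 ciliated-like cells (14.4%, 8.30 to 22.7). The oligodendrocyte lineage was above fibroblast-like cells by 30.2 points in WT (interval of the difference 16.7 to 44.6) and by 55.6 points in Nuc1 (17.6 to 84.6). Astrocyte-like cells differed from fibroblast-like cells by 2.59 points in WT (−3.52 to 10.7) and were below them by 4.30 points in Nuc1 (−6.38 to −1.67). All intervals here are at 95% and cover counting error only. With 1 library per genotype the differences between genotypes have no replicate check and no test, and genotype, litter and culture cannot be told apart. Thinning left out 1, 17, 7 and 0 WT cells and 6, 8, 4 and 2 Nuc1 cells of these classes, in the same order.

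**Figure D1:**
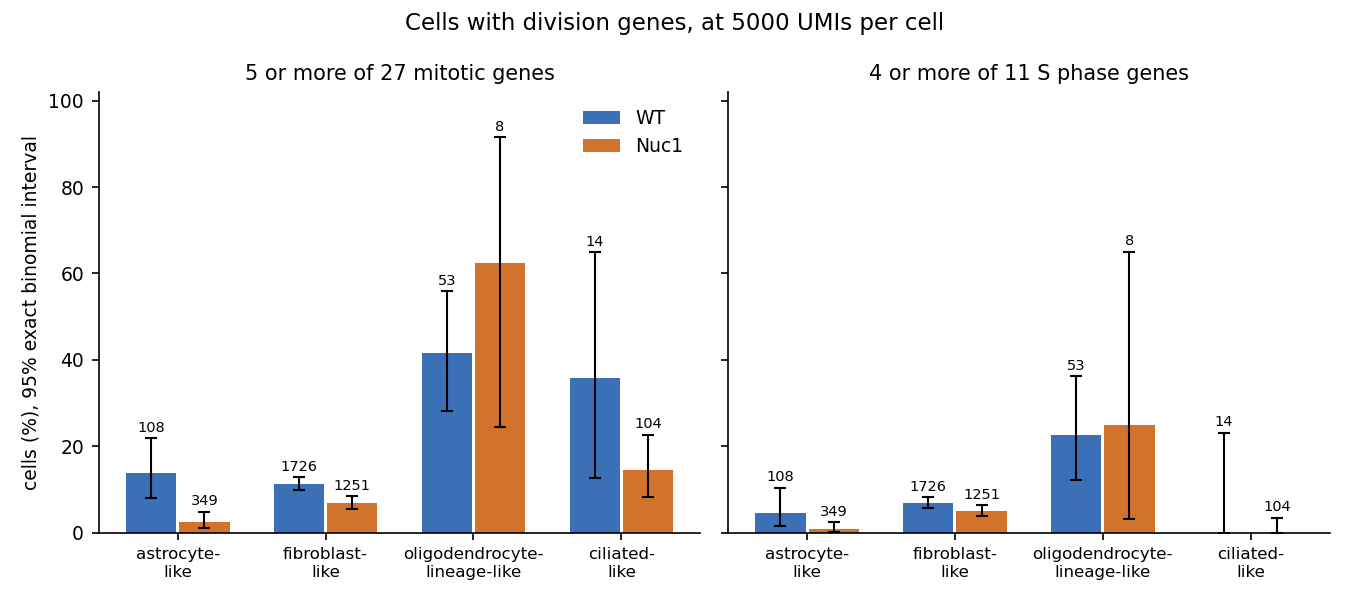
Percent of cells with at least 5 of 27 mitotic genes (left) and at least 4 of 11 S genes (right) in 4 cell classes of the WT (blue) and Nuc1 (orange) libraries, with exact binomial 95% intervals and the number of cells above each bar. Mitotic genes were found in 41.5% of WT oligodendrocyte-lineage-like cells, and no ciliated-like cell reached the S gene threshold.

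The WT and Nuc1 intervals did not overlap in astrocyte-like cells, where the share was lower in Nuc1 by 11.3 percentage points (interval of the difference −19.4 to −4.99), nor in fibroblast-like cells, where it was lower by 4.42 points (−6.50 to −2.30). They overlapped in the oligodendrocyte lineage (−19.6 to 52.9) and in ciliated-like cells (−51.1 to 3.1), where few cells were available. With Aurkb left out of the choice of cells, only 3 WT ciliated-like cells carried mitotic genes, and in Nuc1 the number stayed at 15. Without thinning the shares were 23.9% and 8.73% in astrocyte-like, 16.5% and 11.3% in fibroblast-like, 38.3% and 41.7% in oligodendrocyte-lineage-like and 7 of 14 and 35 of 106 cells in ciliated-like cells, in WT and Nuc1. The ciliated-like class had been planned as the level in cells that do not divide, but it carried mitotic genes itself. As another reference for stray RNA, none of 22 WT and 27 Nuc1 cells of the unnamed cluster carried 5 mitotic genes, at median depths of 19260 and 19496 UMIs. This allows shares of up to 13.6% and 11.1%. These limits lie above the fibroblast-like shares and the Nuc1 astrocyte-like share, so they do not bound stray RNA below those shares.

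Most cells held no mitotic transcript at all at this depth, and few lay near the threshold. In astrocyte-like cells 56.5% in WT and 68.5% in Nuc1 had none of the 27 genes, and 6 cells in each library held 3 to 6. In fibroblast-like cells 66 WT (3.82%) and 46 Nuc1 cells (3.68%) held 3 to 6, while 142 and 64 held 10 or more. Most fibroblast-like cells counted as mitotic thus held many of the genes. Ciliated-like cells differed, with 7 of 14 WT and 17 of 104 Nuc1 cells near the threshold. In this class 1 of 14 WT and 11 of 104 Nuc1 cells held 10 or more.

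**Figure D2:**
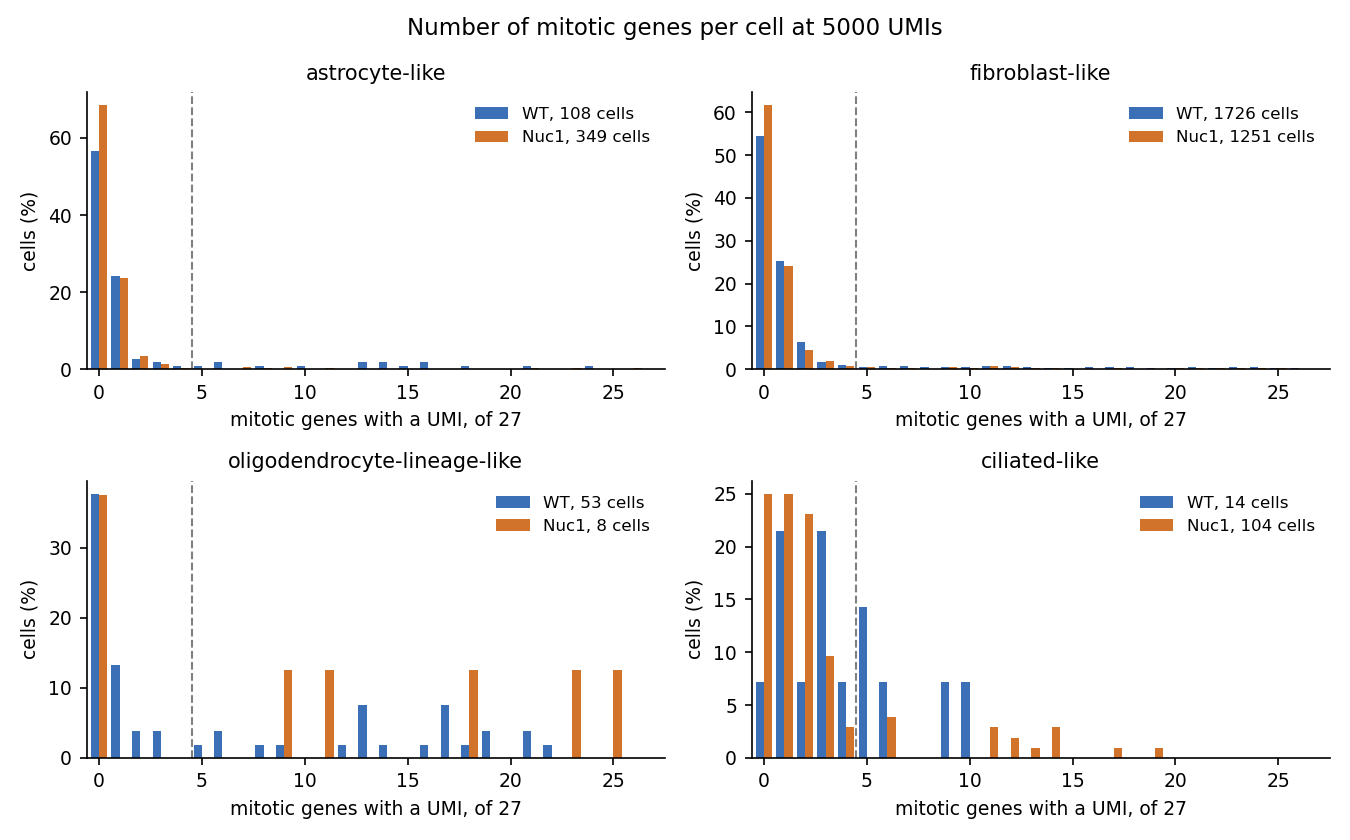
Share of cells (%) by the number of the 27 mitotic genes with a UMI, at 5000 UMIs per cell, in 4 classes of the WT (blue) and Nuc1 (orange) libraries, with the threshold as a dashed line. Cells with 0 or 1 gene form the main peak except in ciliated-like cells, where cells with 1 to 4 genes are common.

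S genes were scored as at least 4 of 11. Among astrocyte-like cells they were found in 4.63% in WT and 0.86% in Nuc1 (5 and 3 cells), in 6.89% and 5.04% of fibroblast-like cells, and in 22.6% and 25.0% of oligodendrocyte-lineage-like cells. The difference between libraries was −3.77 points (−9.65 to −0.26) in astrocyte-like and −1.86 points (−3.59 to −0.08) in fibroblast-like cells. The latter depended on the mixture of fibroblast-like clusters described below. Weighted by the WT mixture the shares were 6.89% and 6.90%, while equal weights gave −1.36 and the Nuc1 mixture −1.90 points. No ciliated-like cell reached the threshold, in 14 WT and 104 Nuc1 cells, which allows shares of up to 21.4% and 2.88%. Without thinning the S shares were 35.8% and 16.9% in astrocyte-like, 24.1% and 23.4% in fibroblast-like, 33.3% and 41.7% in oligodendrocyte-lineage-like and 14.3% and 8.49% in ciliated-like cells. In WT fibroblast-like cells 90 cells carried both sets, 105 only the mitotic and 29 only the S set. In Nuc1 fibroblast-like cells these numbers were 39, 47 and 24.

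In astrocyte-like cells all 41 measured genes were lower in the Nuc1 than in the WT library (40 with TMM scaling, which turned Plk1), 31 of them by 2-fold or more and none higher by 2-fold. Of the 10601 genes that reached 20 UMIs there, 7.02% were lower by that much and 3.83% higher. The median log2 ratio of Nuc1 over WT was −1.43 for the 27 mitotic genes, −1.41 for the 11 S genes and −1.34 for the G1 cyclins, against −0.12 for all genes, which leaves −1.29 for all 41 genes relative to that median. Summed over the 27 mitotic genes the level was 1092 CPM in WT and 377 CPM in Nuc1 (log2 ratio −1.53, −1.60 to −1.46). This ratio reversed to 0.29 when cells over 10% mitochondrial UMIs were dropped and the rest clustered again, which also changed the class: of its 28 WT cells 16 had been astrocyte-like before, and of its 180 Nuc1 cells 149, with 15 more from the ciliated-like class. With the classes kept as they were, the same limit gave −0.75 from 17 WT and 153 Nuc1 cells. Since few cells hold most of these UMIs, counting intervals of summed genes are too narrow. The 15 WT cells with mitotic genes held 89.7% of the mitotic UMIs of their class and the 9 Nuc1 cells 77.3%. These cells were chosen by the same 27 genes, which fixes these shares and levels in part. Within them the level was 7080 CPM in WT and 8112 in Nuc1, and in the other cells 131 and 89.1 CPM. The cells with mitotic genes had median depths of 25823 UMIs in WT and 37550 in Nuc1. Fewer such cells and less RNA per cell cannot be told apart in the summed levels alone.

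The genes with the lowest ratios were Rrm2, a subunit of ribonucleotide reductase, and Bub1b, of the spindle checkpoint. The UMIs of Rrm2 were 26 in WT and 7 in Nuc1 (log2 ratio −3.56, −5.00 to −2.31), and those of Bub1b 21 and 8 (−3.05, −4.44 to −1.82). Cenpw, a kinetochore protein, followed at −2.31, the spindle motor Kif11 at −2.29 and the proliferation marker Mki67 at −2.15 (−2.49 to −1.81). At the other end stood the mitotic kinases Plk1 (26 and 75 UMIs, −0.13, with an interval of −0.79 to 0.57) and Aurka (−0.49, −1.21 to 0.27), Mcm4 (−0.31, −0.77 to 0.16), Ccnd1 (−0.66) and Ccnb1 (−0.79). For Plk1, Mcm4 and Aurka the interval included no difference. Cdca3 had 148 and 111 UMIs, a ratio of −2.08, but it had been picked earlier for its ratio in these cells and is given as a description.

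Other cell types and conditions of the cells moved with this result. The WT astrocyte-like cells had astrocyte markers at 43647 CPM, with Mt3 the most abundant, and the Nuc1 cells at 55001 CPM, with Gfap the most abundant. Fibroblast markers summed to 1084 CPM in WT (22 of 25 measured, Col1a1 the highest) and 782 in Nuc1 (24 of 25, Col3a1 the highest). Of 11 genes induced by dissociation 7 were lower in Nuc1 by 2-fold or more, against 7.02% of all genes, and 1 lay above 0 (Hspa1b, 0.04), with a summed level of 4253 CPM in WT and 1923 in Nuc1, and Nr4a1 at a log2 ratio of −2.39. Astrocyte markers were at a median of 26183 CPM in the WT cells with mitotic genes against 46811 in the others, and at 29021 against 54018 in Nuc1. The median mitochondrial share was 12.9% and 10.9%. Genes of multiciliated precursors stood high in a few WT cells: Ccno had 101 UMIs in WT and 20 in Nuc1 cells, and Myb 69 and 11. Among cells with no UMI of Ccno, Mcidas, Deup1 or Foxn4, 12 of 96 WT cells carried mitotic genes (12.5%, 6.63 to 20.8). In Nuc1 7 of 335 did (2.09%, 0.84 to 4.26), a difference of −10.4 points. Myb was not used in this choice of cells. The part of all these measures in the result was not tested.

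**Figure D3:**
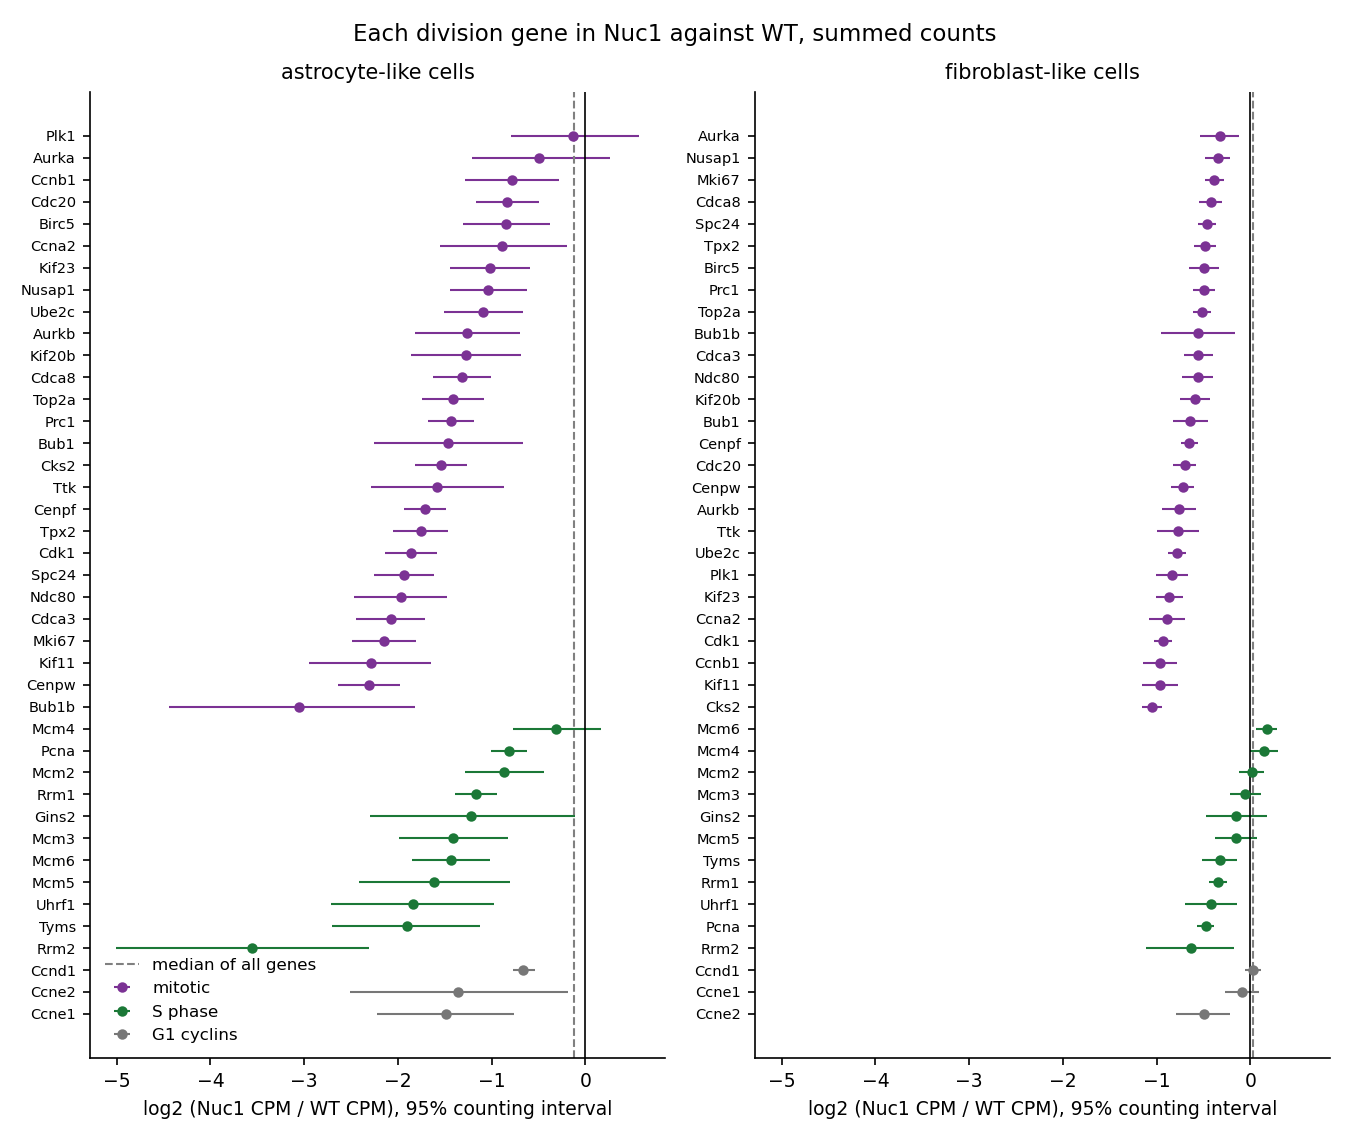
Log2 ratio of Nuc1 over WT CPM of each division gene in astrocyte-like (left) and fibroblast-like cells (right), with exact 95% counting intervals, mitotic genes in purple, S genes in green and G1 cyclins in grey, and the median of all genes as a dashed line. All 41 genes lie below 0 in astrocyte-like cells (40 with TMM scaling), whereas Mcm6, Mcm4, Mcm2 and Ccnd1 lie above 0 in fibroblast-like cells, the last 2 only with CPM or UMIs per cell.

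In fibroblast-like cells the 27 mitotic genes were all lower in the Nuc1 library, with a smaller median difference than in astrocyte-like cells, and the S genes were split. The median log2 ratio was −0.64 for the mitotic and −0.15 for the S genes, against 0.03 for all 12300 genes with at least 20 UMIs. Of the 41 genes 1 was lower by 2-fold or more and none higher by 2-fold, against 5.1% and 6.67% of all genes, so a count at 2-fold does not set the division genes apart here. Summed mitotic genes were 1355 CPM in WT and 863 CPM in Nuc1 cells (log2 ratio −0.65, −0.68 to −0.63), and summed S genes 366 and 321 CPM (−0.19, −0.23 to −0.15). With the clusters of this class weighted as in WT, the ratios were −0.31 for mitotic and −0.018 for S genes. Of the S genes 8 of 11 were below and 3 above a ratio of 0, and other scalings turned only genes close to 0: Mcm2 and Ccnd1 with TMM or a median ratio of 0, and Mcm3 and Ccne1 with UMIs per cell.

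The lowest ratios belonged to Cks2, a partner of cyclin-dependent kinases (2751 and 1032 UMIs, −1.05, −1.15 to −0.94), Kif11 (−0.96), Ccnb1 (−0.96), Cdk1 (−0.93) and Ccna2, the cyclin of S and G2 phase (−0.89). These are the kinase that starts mitosis, 2 of its cyclins, its partner and a spindle motor. The highest were Mcm6 (1416 and 1239 UMIs, 0.17, 0.06 to 0.29), Mcm4 (0.15), Ccnd1 (0.03, −0.06 to 0.11), Mcm2 (0.02, −0.12 to 0.15) and Mcm3 (−0.06), of which all but Ccnd1 are subunits of the replicative helicase.

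The mitotic kinases and cyclins had these levels in the astrocyte-like and then the fibroblast-like class. Cdk1 was 82.4 CPM in WT and 22.7 in Nuc1 astrocyte-like cells, and 97.3 and 51.0 in fibroblast-like cells. Ccnb1, its cyclin, was 18.8 and 10.9 CPM, and 30.5 and 15.7. Aurkb, the kinase of the chromosomal passenger complex that corrects spindle attachments, was 17.5 and 7.28 CPM, and 28.5 and 16.8. Thus each was lower in Nuc1 in both classes with counting intervals of the ratio below 0. Plk1, which drives entry into mitosis and cytokinesis, was 9.08 and 8.27 CPM, and 32.1 and 18.04, so that its WT level was low in astrocyte-like cells and only the fibroblast-like values stood apart.

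Among proteins of the chromosomes and the spindle, Top2a, the topoisomerase that untangles sister DNA, was 50.3 CPM in WT and 18.9 in Nuc1 astrocyte-like cells, and 88.2 and 61.8 in fibroblast-like cells. Mki67, a coat of mitotic chromosomes, was 62.1 and 14.0 CPM, and 70.9 and 54.4. Birc5 (survivin), which sits in the same complex as Aurkb, was 21.6 and 12.02 CPM, and 33.0 and 23.5. The order of the libraries was the same for all 3 in both classes. Cenpf, a protein of the outer kinetochore, was 119 and 36.3 CPM, and 106 and 67.7. Kif11 was 18.8 and 3.86 CPM, and 26.5 and 13.6.

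Ube2c, the ubiquitin-conjugating enzyme of the anaphase-promoting complex, was 27.9 CPM in WT and 13.1 in Nuc1 astrocyte-like cells, and 105 and 61.1 in fibroblast-like cells. Cdc20, an activator of that complex, was 41.9 and 23.5 CPM, and 59.0 and 36.3. Cdca3 was 51.7 and 12.2 CPM, and 34.6 and 23.6.

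Of the subunits of the Mcm helicase, Mcm2 was 26.2 CPM in WT and 14.3 in Nuc1 astrocyte-like cells, and 35.6 and 36.03 in fibroblast-like cells. Mcm3 was 16.8 and 6.29 CPM, and 24.1 and 23.2. Mcm5 was 9.77 and 3.20 CPM, and 14.0 and 12.6. These subunits were lower in Nuc1 astrocyte-like cells and had ratio intervals that included 0 in fibroblast-like cells. Mcm6 was 32.5 and 12.02 CPM, and 48.7 and 54.9. Pcna, the sliding clamp, was 123 and 69.7 CPM, and 101 and 72.3.

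Tyms, which makes thymidylate, was 11.2 CPM in WT and 2.98 in Nuc1 astrocyte-like cells, and 20.8 and 16.6 in fibroblast-like cells. Rrm2 was 9.08 and 0.77 CPM, and 4.05 and 2.61. Uhrf1, which carries DNA methylation through replication, was 9.08 and 2.54 CPM, and 10.4 and 7.80. Gins2, part of the active helicase, was 4.89 and 2.10 CPM, and 6.63 and 5.98, with a fibroblast-like ratio interval that included 0.

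The G1 cyclins did not follow 1 pattern. Ccnd1, the cyclin D that couples growth signals to the cycle, was 309 CPM in WT and 195 in Nuc1 astrocyte-like cells, but 88.8 and 90.4 in fibroblast-like cells. Ccne1, the cyclin E that opens S phase, was 11.2 and 3.97 CPM, and 21.3 and 20.03. Ccne2 was 4.54 and 1.76 CPM from 13 and 16 UMIs, and 9.89 and 7.00. In WT fibroblast-like cells 16.1% of the Ccnd1 UMIs lay in the cells with mitotic genes, against a median of 93.2% for the mitotic genes (81.5 to 97.7) and 53.6% for the S genes (40.6 to 97.5).

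The other 17 members were Mcm4, Rrm1 and 15 mitotic genes (Cks2, Spc24, Nusap1, Kif23, Cenpw, Cdca8, Ccna2, Bub1, Bub1b, Aurka, Tpx2, Kif20b, Prc1, Ttk and Ndc80). Their log2 ratios ran from −3.05 (Bub1b) to −0.31 (Mcm4) in astrocyte-like and from −1.05 (Cks2) to 0.15 (Mcm4) in fibroblast-like cells. All 41 genes had at least 20 UMIs over both libraries in each of these classes, so none was lost to that minimum.

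The fibroblast-like class was not the same mixture in the 2 libraries. The clusters compared here rest on the integration of the libraries. With the libraries merged without it, a fibroblast-like cluster held 1051 WT and 3 Nuc1 cells and another 14 WT and 755 Nuc1 cells. The cluster led by Igfbp5 and Ccn3 held 41.4% of WT and 32.9% of Nuc1 cells, the cluster led by Actg2 and Penk 36.8% and 20.02%, the cluster with Cldn11 and Nkd2 18.4% and 17.5%, and the cluster led by Inmt and Cyp26b1 3.44% and 29.6%. Most WT cells were thus in the Igfbp5 and Actg2 clusters, and most Nuc1 cells in the Igfbp5 and Inmt clusters. Mitotic genes were in 2.95% of WT and 0.98% of Nuc1 cells of the Igfbp5 cluster (21 and 4 cells), 19.6% and 18.7% of the Actg2 cluster (125 and 47), 13.9% and 11.9% of the Cldn11 cluster (44 and 26) and 8.33% and 2.42% of the Inmt cluster (5 and 9). The share was lower in Nuc1 in each of the 4 clusters, but the intervals of the Actg2 (16.6 to 22.9 and 14.0 to 24.0), Cldn11 (10.3 to 18.2 and 7.94 to 17.0), Igfbp5 (1.83 to 4.47 and 0.27 to 2.49) and Inmt clusters (2.76 to 18.4 and 1.11 to 4.54) overlapped. Weighted by the WT mixture of clusters, the share was 11.3% in WT and 9.55% in Nuc1, a difference of −1.74 points in place of −4.42, while equal weights gave −2.71 and the Nuc1 mixture −2.95 points. For the S genes the WT mixture gave 6.89% and 6.90%, equal weights a difference of −1.36 and the Nuc1 mixture one of −1.90 points.

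**Figure D4:**
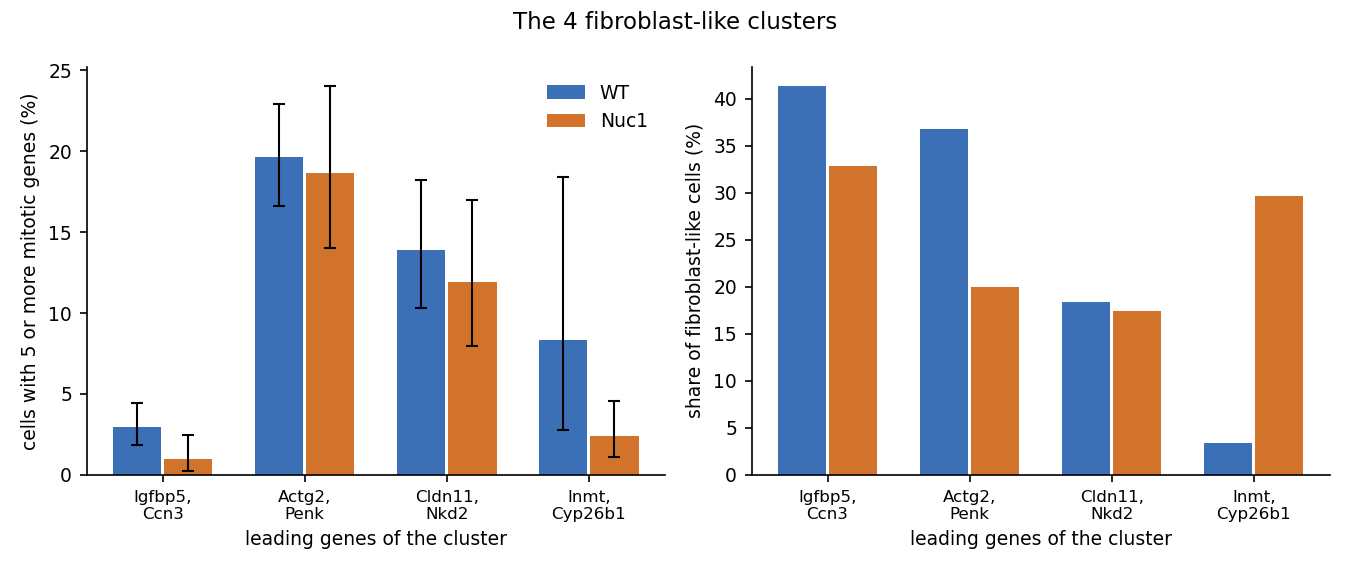
Left, percent of cells with at least 5 mitotic genes in the 4 fibroblast-like clusters, named by 2 leading genes, in WT (blue) and Nuc1 (orange), with exact binomial 95% intervals. Right, percent of the fibroblast-like cells of each library in each cluster. The Actg2 cluster has the highest share of such cells (19.6% and 18.7%) and is a smaller part of the Nuc1 class, while the Inmt cluster is 3.44% of the WT and 29.6% of the Nuc1 class.

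Within clusters the summed mitotic genes were lower in Nuc1 in all 4, with log2 ratios of −0.61 in the Igfbp5, −0.29 in the Actg2, −0.19 in the Cldn11 and −1.62 in the Inmt cluster. Summed S genes were lower in the Igfbp5 (−0.29) and Inmt clusters (−0.95), and at 0.10 and 0.04 in the Actg2 and Cldn11 clusters. In fibroblast-like cells that carried mitotic genes the mitotic level, which this choice of cells fixes in part, was 7221 CPM in WT and 6890 in Nuc1 (log2 ratio −0.07). The S level of these cells was 1118 and 1161 CPM (0.05, −0.01 to 0.12). They were deeper than the rest, with medians of 23890 UMIs in WT and 26788 in Nuc1 against 13274 and 14844, and had lower fibroblast markers, with medians of 11906 and 8016 CPM against 15163 and 9924. Dissociation genes moved in this class too, with a summed level of 6473 CPM in WT and 3572 in Nuc1, 4 of 11 lower by 2-fold or more against 5.1% of all genes, 2 above 0 (up to 0.84 for Hspa1b) and Nr4a1 at a log2 ratio of −2.63. Their part in the result was not tested.

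At 5000 UMIs, Top2a had a UMI in 128 WT fibroblast-like cells and Mki67 in 166, and the cells with both were 79.7% of the cells with Top2a and 61.4% of those with Mki67. In Nuc1 64 and 83 cells held them and 47 held both, which is 73.4% and 56.6%. Of the fibroblast-like cells with Cdk1, 29.7% in WT and 22.9% in Nuc1 also held Ccnb1, and of those with Ccnb1, 80.5% and 61.1% held Cdk1. All 7 WT astrocyte-like cells with Top2a were among the 13 with Mki67, while of 8 Nuc1 astrocyte-like cells with Top2a and 6 with Mki67, 2 held both. Over full depth, 77.4% of the WT cells with mitotic genes held Top2a against 2.6% of the other cells, and 93.3% held Mki67 against 5.6%. Pcna was in 90.8% and 58.3%, and Ccnd1 in 52.3% and 42.2%, so that these 2 genes marked the cells with mitotic genes least of the 41 by the ratio of these shares. For each mitotic gene, here and in the shares of UMIs compared with Ccnd1 above, the cells were chosen by the other 26 mitotic genes. This gave 193 WT cells for Mki67. Shares of summed mitotic UMIs, above and below, instead used cells chosen by the full mitotic set, which fixes those shares in part.

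Outside the list, the 15 genes that most marked fibroblast-like cells with mitotic genes, over cells with none, were picked by their fold in both libraries and are described with no test. Kif20a, a kinesin of cytokinesis, was 227 CPM in WT cells with mitotic genes against 0.96 in those with none, and 218 against 0.46 in Nuc1. Pttg1 (securin), which delays the separation of sister chromatids until anaphase, was 279 against 5.9 CPM, and 310 against 3.7. Hmgb2, a chromatin protein, was 1044 against 91.4 CPM, and Stmn1, which destabilises microtubules, 1003 against 111 in WT. The others were Cdkn3, LOC100359539, Knstrn, Kif22, Hmmr, Dlgap5, Cenpe, Ckap2, Tacc3, Nuf2 and Sgo2, all of them higher in both libraries and 12 of the 15 in a further list of mitotic genes.

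In WT cells of the oligodendrocyte lineage, 21 of the 27 mitotic genes were higher than in fibroblast-like cells by 2-fold or more, and 6 of the 11 S genes and 2 of the 3 G1 cyclins, against 18.6% of 11697 genes. Top2a was 385 CPM in WT and 581 in Nuc1 cells, Mki67 315 and 403 CPM, and Prc1, a bundler of spindle microtubules, 382 and 436 CPM. The summed mitotic level was 3926 CPM in WT and 5314 CPM in Nuc1, from 60 and 12 cells, and 97.4% and 99.8% of these UMIs lay in the 22 and 5 cells with mitotic genes. The Nuc1 values thus rest on 5 cells. Ccnd1 had its highest level of the 4 classes here, at 1670 and 1347 CPM, with 42 of 60 WT cells holding a UMI, against 88.8 CPM in WT fibroblast-like cells. In the WT cells with mitotic genes the markers of the lineage were at a median of 6621 CPM, against 14065 in the others, at median depths of 13970 and 11020 UMIs. In Nuc1 the order was the opposite, at 5526 against 3996 CPM, from 5 and 3 cells. This class also carried astrocyte markers. Their medians were 7661 CPM in the WT cells with mitotic genes against 6628 in the others, and 5455 against 10369 in Nuc1.

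Ciliated-like cells carried mitotic genes with few transcripts of S genes other than Pcna and Rrm1. Against fibroblast-like cells of the Nuc1 library, 7 of 27 mitotic genes were higher by 2-fold or more, which is close to the 19.6% of all 11939 genes, and 7 lower. Of the 11 S genes none was higher and 8 were lower, and of the 3 G1 cyclins 2 were lower, against 23.1% of all genes. The median log2 ratio was 0.17 for the mitotic genes, −2.41 for the S genes and −0.10 for all genes. In WT the medians were −0.71 and −1.80 from 14 cells.

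**Figure D5:**
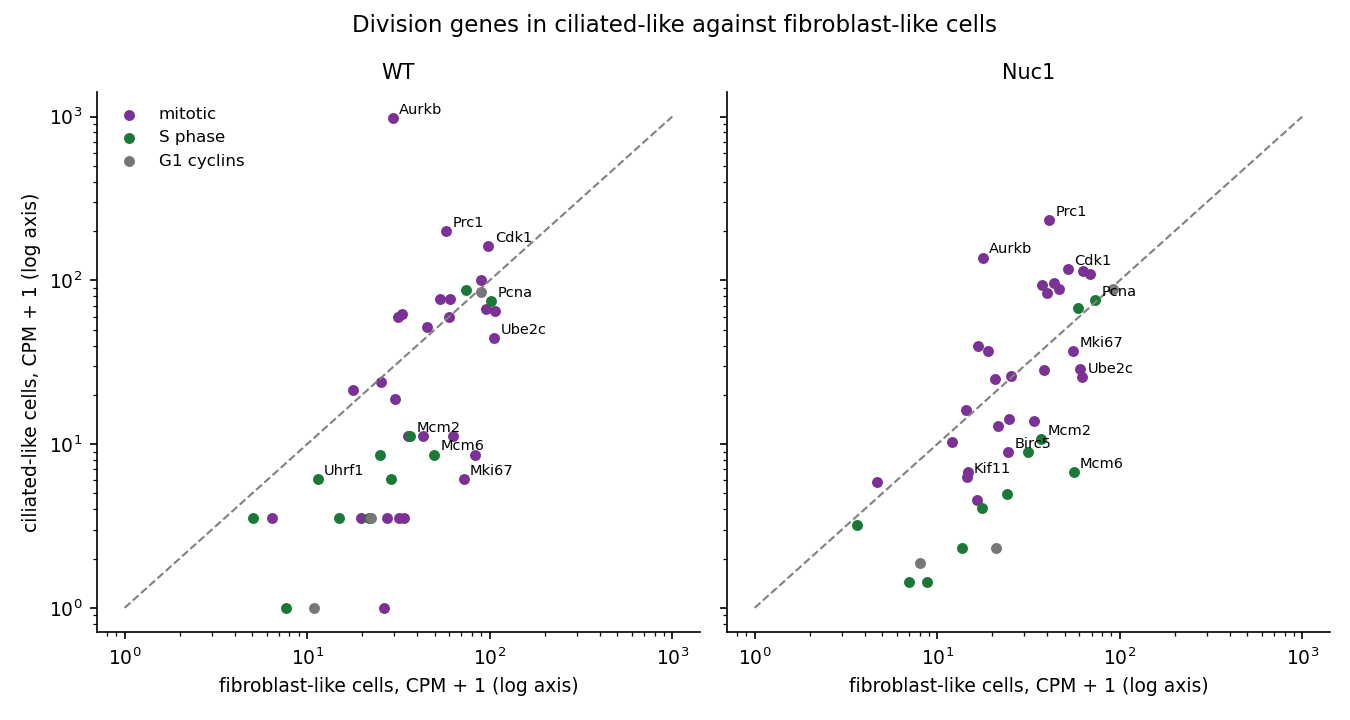
CPM plus 1 of each division gene in ciliated-like (vertical, log axis) against fibroblast-like cells (horizontal, log axis) of the WT (left) and Nuc1 library (right), with mitotic genes in purple, S genes in green and G1 cyclins in grey and equality as a dashed line. Aurkb and Prc1 lie above the line in both libraries. S genes other than Pcna and Rrm1 lie below it in both, and Pcna lies below it in WT.

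Aurkb stood out in these cells. It was 980 CPM in WT and 137 CPM in Nuc1 ciliated-like cells, against 28.5 and 16.8 CPM in fibroblast-like cells, and 13 of 14 WT and 59 of 106 Nuc1 ciliated-like cells held a UMI, against 251 of 1743 and 123 of 1259 fibroblast-like cells. The WT sum of 385 UMIs came from 13 cells, with 92 UMIs in the highest and 72.2% of the sum in the top 5. No annotated protein-coding neighbour overlapped Aurkb, the nearest being Ctc1 at 8970 bases, and non-coding genes were not searched. Prc1 was 199 and 231 CPM, against 56.6 and 40.1 in fibroblast-like cells, and was found in 9 of 14 and 71 of 106 cells. Tpx2, which activates Aurka on the spindle, was found in 9 of 14 and 65 of 106 cells. Mki67, in contrast, was found in 2 of 14 and 15 of 106 cells and had 2 and 81 UMIs.

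The 20 ciliated-like cells of both libraries with at least 5 mitotic genes differed from the other 98 in genes of centriole formation. The 20 cells were also deeper, with medians of 33082 UMIs in WT and 25272 in Nuc1 against 23752 and 17040 in the others. Deup1, which builds the deuterosomes on which many centrioles form and is also among the ciliated markers, had a UMI in all 20 and in 27.6% of the others, at 460 against 34.1 CPM. Ccno, a cyclin-like protein of multiciliated precursors, was in 16 of 20 and 3.1% of the others (584 against 9.4 CPM). Plk4, the kinase that starts centriole assembly, was in 17 of 20 and 4.1% (174 against 3.5 CPM), and Stil, its partner, in 15 of 20 and 3.1%. These 4 were picked after their values were seen. Of the other 7 centriole genes, Myb was in 19 of the 20 cells (182 against 54.8 CPM), Foxn4 in 10 (35.4 against 0.49), Cenpj in 9 (24.1 against 12.8), Mcidas in 6 (16.1 against 0) and Sass6 in 4 (9.65 against 0). Ccdc78 was at 143 against 128 CPM, and Gmnc in none of the 20 cells and 2.04% of the others. In fibroblast-like cells Ccno was 0.96 CPM in WT and 1.06 in Nuc1 and Deup1 0.76 and 0.31 CPM, at median depths of 13706 and 15166 UMIs, which bounds stray RNA of these genes.

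Among the mitotic genes, Cdk1 (482 against 12.8 CPM), Top2a (461 against 4.4 CPM) and Cenpf (399 against 10.9 CPM) were higher in the same 20 cells, as their choice fixes in part. With each gene left out of the choice of cells the contrast was smaller in WT, at 273 against 87.9 CPM for Cdk1, 214 against 25.1 for Top2a and 96.2 against 34.03 for Cenpf, from 4 or 5 cells, than in Nuc1, at 552 against 12.6, 570.3 against 4.94 and 529 against 8.24 CPM from 15 cells. Aurkb, Prc1 and Tpx2 were in 53.1%, 61.2% and 58.2% of the other 98 cells as well. Of the S genes, Mcm4 was in 7 of the 20 cells and 10.2% of the others (14.5 against 5.43 CPM), and Mcm3 in 4 and 6.12%. Mcm5, Rrm2 and Uhrf1 were each in 3 of the 20 cells, against 1.02% of the others for Mcm5 and none for Rrm2 and Uhrf1. Mcm2 and Mcm6 were each in 2 of the 20 cells with 1 UMI a cell, against 23.5% and 12.2% of the others, Gins2 was in 1 and Tyms in none. Pcna was in 16 of 20 and Rrm1 in 20 of 20, against 64.3% and 51.0% of the others. The 20 cells still held Dynlrb2 and Cfap126 in every cell, and Gfap at 1299 CPM against 2643 in the others.

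The balance of S over mitotic UMIs differed between the libraries in the same direction in both large classes. S UMIs per mitotic UMI were 0.33 in WT and 0.46 in Nuc1 astrocyte-like cells, a log2 difference of 0.48 (0.34 to 0.61), and 0.27 and 0.37 in fibroblast-like cells, a difference of 0.46 (0.41 to 0.51). The astrocyte-like difference reversed with a limit of 10% mitochondrial UMIs, both when cells were clustered again (−1.46, with the change of class given above) and when the classes were kept (−0.41, from 17 WT cells), and with classes set by markers in place of clusters (−0.10). In the oligodendrocyte lineage the ratio was 0.21 and 0.25, with an interval of the difference that included 0 (−0.03 to 0.53). In ciliated-like cells it was 0.10 and 0.13, and without Aurkb, which held 385 of the 829 WT mitotic UMIs, 0.18 and 0.14, so that the order of the libraries turned. These ratios mix cells with and without mitotic genes. S UMIs lay in the cells with mitotic genes to 52.9% in WT and 40.3% in Nuc1 fibroblast-like cells, and in astrocyte-like cells 518 S UMIs lay in them and 518 outside in WT, and 279 and 1295 in Nuc1. Within the cells with mitotic genes, Nuc1 astrocyte-like cells had fewer S UMIs (857 CPM against 1309 in WT, log2 ratio −0.61), from 9 and 15 cells.

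Further genes of the cycle are given by their counts. Of 68 other mitotic genes in the files, 59 had at least 20 UMIs in astrocyte-like cells, and 37 of them were lower in Nuc1 by 2-fold or more and none higher (median −1.17). Of 43 other S genes 32 had enough UMIs, with 8 lower and none higher (median −0.54), where 7.02% of all genes were lower by that much. In fibroblast-like cells 4 of 67 other mitotic genes and none of 41 other S genes were lower by 2-fold or more (medians −0.46 and −0.11), and the former is near the 5.1% of all genes there. In astrocyte-like cells the lowest of the other mitotic genes were Ckap2l (−2.46), Pimreg (−2.32) and Pbk (−2.30), and 2 of the 59 lay above 0. The lowest of the other S genes there were Gins1 (−2.21), Tk1 (−2.19) and Rad51ap1 (−1.71), and the highest Ubr7, Rfc2 and Fen1 (0.56, 0.50 and 0.02). In fibroblast-like cells the ends were Depdc1b, Cep55 and Troap (−1.22, −1.20 and −1.12) and Psrc1, Cit and Ccnf (0.96, 0.60 and 0.29) among mitotic genes, and Cdc45, Brip1 and Gmnn (−0.66, −0.63 and −0.49) and Chaf1a, Pold3 and Rfc2 (0.39, 0.37 and 0.37) among S genes.

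Among 30 regulators of the cycle 23 could be compared in astrocyte-like cells, with 5 lower by 2-fold or more and none higher, against 7.02% and 3.83% of all genes, and 29 in fibroblast-like cells, with 3 lower and 4 higher, against 5.1% and 6.67%. The inhibitor Cdkn1c (p57) was higher in Nuc1 in all 4 classes. It was 569 CPM in WT and 1242 in Nuc1 fibroblast-like cells (log2 ratio 1.13), 33.9 and 60.8 CPM in astrocyte-like cells (0.84, 0.53 to 1.17), 134 and 589 CPM in the oligodendrocyte lineage and 15.3 and 56.6 CPM in ciliated-like cells. Cdkn1a (p21), an inhibitor downstream of p53, was 74.4 and 130 CPM in astrocyte-like cells (0.80, 0.59 to 1.02) and 165 and 177 CPM in fibroblast-like cells (0.10). Foxm1, an activator of mitotic genes, had 17 and 15 UMIs in astrocyte-like cells (−1.84, −2.95 to −0.75). In these cells Cdkn2a (−1.71) and the antiproliferative gene Btg2 (−1.23) were also low, and Ccng1 (0.41) high.

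In fibroblast-like cells the ends of the regulators were Btg2 (844 and 367 CPM, −1.20), Gas1 (−1.16) and Btg1 (−1.10), which restrain growth, and Cdkn1c, Ccnd2 (36.7 and 78.6 CPM, 1.10) and Cdkn2a (1.04). Btg2 is also among the genes that respond early to stimulation, and the dissociation genes named above moved the same way. Cdkn2a was lower in Nuc1 astrocyte-like and higher in Nuc1 fibroblast-like cells. Ccnd2, a second cyclin D, was 27.8 CPM in WT and 1129 in Nuc1 cells of the oligodendrocyte lineage, where the Nuc1 value came from 140 UMIs in 12 cells. Of the 7 of 11 centriole genes with at least 20 UMIs there, Myb (−4.31), Ccno (−4.00) and Plk4 (−2.23) were lowest in Nuc1 astrocyte-like cells, and Ccdc78, Deup1 and Cenpj highest (2.09, −0.73 and −0.90). In fibroblast-like cells 6 of 11 had enough UMIs, from Deup1 (−1.28), Cenpj (−0.20) and Plk4 (−0.19) to Stil (−0.04), Ccno (0.14) and Sass6 (0.17).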

How the data were processed

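The authors made 1 library per genotype with a 3′ droplet kit and deposited raw counts of UMIs per gene and barcode. The submitters' processing notes name Cell Ranger 3.1.0, STAR 2.7 and Seurat 3.1.0 and 3.1.1, and the genome build of the counts is not given in the sources used here. The labels give an input of 5092 WT and 5125 Nuc1 cells and a target of 3000. Barcodes under 500 genes or over 20% mitochondrial UMIs were left out, and Scrublet (in scanpy 1.11.5, expected rate 2%) removed 5 WT and 11 Nuc1 cells, below that rate, and more doublets may be present. The libraries shared 2 barcodes. Counts were log-normalized, integrated by anchors over 2000 variable genes without 494 cell cycle genes (182 listed and 312 more with a correlation over 0.25), and clustered on 30 components at a resolution of 0.5 in Seurat 5.3.0 and R 4.3.3. Clusters were named from a marker list when it held at least 3 of their 10 leading genes. The 4 fibroblast-like clusters did not reach this. They were named by a sum of at least 5000 CPM of Col1a1, Col1a2, Col3a1, Dcn and Lum, a limit chosen after the values were seen, where no other list led.

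UMIs were summed per class and library and divided by the class total (CPM, computed here), with exact Poisson, binomial (Clopper-Pearson) and conditional intervals at 95%. With 1 library per genotype no p-value was computed. A sum of 0 allows 3 counts. Counts of genes past 2-fold and medians used genes with at least 20 UMIs over both libraries and added 0.5 UMIs to each sum, scaled to class size, so they differ slightly from ratios of single genes. Symbols listed more than once (99) were not used. Named genes are 24 members fixed by name, the 5 highest and 5 lowest ratios per class, the 15 marking genes with at least 100 UMIs, and the 3 ends of each further list, of which 1 gene is not reported here. Single genes described in oligodendrocyte-lineage-like and ciliated-like cells, pairs of genes and the counts of members under other scalings were chosen after their values were seen. The members and lists were chosen with earlier results of these data known. The steps were tested on simulated data. Alternatives covered filters, doublets, clustering, class rules, thresholds, thinning and scaling, with TMM from edgeR 4.0.16. Python 3.11.15 with numpy 2.4.6, scipy 1.17.1, pandas 2.3.3 and matplotlib 3.10.9 was used.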

Additional observations from a re-analysis of the deposited data

Results flagged for a closer look

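The genotypes differed in opposite directions between cell classes for a few results, each with counting intervals of the log2 ratio of Nuc1 over WT that left out 0 in both classes. With 1 library per genotype the difference between the classes was not tested against replicates. Cdkn2a, which encodes the inhibitor p16 and the p53 activator Arf, was 10.1 CPM in WT and 3.09 in Nuc1 astrocyte-like cells, from 29 and 28 UMIs, and 22.0 and 45.3 CPM in fibroblast-like cells, so that the log2 ratios of the classes lay 2.75 apart. Mcm6 was lower in Nuc1 astrocyte-like and higher in Nuc1 fibroblast-like cells, with ratios 1.61 apart, the fibroblast-like ratio being only 0.17.

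In the oligodendrocyte lineage the summed mitotic genes were higher in Nuc1 (log2 ratio 0.44, 0.31 to 0.56), while in the other 3 classes they were lower. In ciliated-like cells the lower value rested on Aurkb: without it the other 26 mitotic genes summed to 1130 CPM in WT and 1258 CPM in Nuc1, an alternative chosen after seeing the data. The ratios lay 1.97 apart from that of astrocyte-like cells, 1.09 from fibroblast-like and 1.03 from ciliated-like cells. Summed S genes were also higher in Nuc1 there (0.69, 0.43 to 0.94), 1.74 apart from astrocyte-like and 0.88 from fibroblast-like cells. The Nuc1 values of the lineage come from 12 cells, of which 5 held nearly all mitotic UMIs, so these counting intervals are too narrow. The shares of its cells with mitotic genes (41.5% and 62.5%) and S genes (22.6% and 25.0%) differed with intervals that included 0 (−19.6 to 52.9 and −23.3 to 43.8 points).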

How the results depend on the processing

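Of 205 alternatives over 14 results, 157 stayed within the counting interval, 41 moved further and 7 reversed. The cause of a move was not tested unless given. No paired analysis was possible because there was only 1 library of each genotype, and no replicate could be left out. Shares with mitotic genes kept their direction in all 4 classes under every alternative computed for them (differences of −21.7 to −9.11 points in astrocyte-like and −5.74 to −1.74 in fibroblast-like cells), and those of oligodendrocyte-lineage-like (3.33 to 35.0) and ciliated-like cells (−37.4 to −2.26) varied widely with few cells.

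Clustering again under a limit of 10% mitochondrial UMIs gave an astrocyte-like class of 28 WT and 180 Nuc1 cells (16 and 149 of them from the class as reported, and 15 Nuc1 cells from the ciliated-like class), gave no separate oligodendrocyte-lineage-like or ciliated-like cluster, and reversed the summed mitotic genes (0.29) and the S over mitotic difference (−1.46) of astrocyte-like cells, with summed S genes at −1.17 and fibroblast-like mitotic genes at −0.71. A rule on markers in place of clusters reversed the astrocyte-like S over mitotic difference (−0.10), with summed mitotic genes at −0.94 there and at −0.58 in fibroblast-like cells, whose S genes were −0.14; it left no WT ciliated-like cell. With division genes kept in the clustering, summed mitotic genes were −2.20 and −0.52 and S over mitotic 1.11 and 0.34 in astrocyte-like and fibroblast-like cells, and with only listed genes left out they were −1.76 and −0.63, and 0.69 for S over mitotic in astrocyte-like cells. Leaving out glial cells rich in collagen gave −1.33 and 0.21 in astrocyte-like cells, and median absolute deviations −0.62 for fibroblast-like mitotic genes.

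Scaling by TMM gave −1.37 for mitotic and −0.89 for S genes in astrocyte-like and −0.69 for mitotic genes in fibroblast-like cells, and a median ratio of 0 gave −1.42 and −0.94 in astrocyte-like cells. Mean CPM over cells gave −1.86 and −0.80 for mitotic genes, and mean UMIs per cell −0.55 for mitotic and −0.089 for S genes in fibroblast-like cells. Without the gene of most UMIs, S genes were −1.20 and −0.10 and S over mitotic 0.32 and 0.56 in astrocyte-like and fibroblast-like cells, and S over mitotic at 5000 UMIs was 0.80 and 0.67. The S share of astrocyte-like cells differed by −9.79 points at 10000 UMIs (14.0% and 4.23%) and by −18.9 without thinning.

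Chosen after seeing the data, weighting of the fibroblast-like clusters as in WT gave −1.74 points for the mitotic share, 0.0035 for the S share (reversed, 6.89% and 6.90%), −0.31 for mitotic and −0.018 for S genes, and equal weights −0.48 for mitotic genes. Without astrocyte-like cells holding Ccno, Mcidas, Deup1 or Foxn4, mitotic genes were −1.45 and S genes −0.91. With the classes kept, the 10% mitochondrial limit gave −21.7 points for the mitotic share, −0.75 for mitotic genes and −0.41 for S over mitotic (reversed) in astrocyte-like cells, from 17 WT and 153 Nuc1 cells, and −0.71 for mitotic genes in fibroblast-like cells. Without Aurkb the ciliated-like mitotic genes reversed from −0.60 to 0.15 (0.01 to 0.30) and S over mitotic from 0.39 to −0.36. The other 14 values added in this way stayed within the counting interval. Depth limits single genes: in astrocyte-like cells Ccne2 rested on 13 and 16 UMIs.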
